A study of Mus musculus with 19 samples.

Results

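Wnt3, Wnt4, Wnt5a, Wnt7a, Wnt7b, Wnt10a, Wnt10b and Axin2 were followed across normal and transgenic mouse tongue epithelia. These 8 genes, 7 secreted Wnt ligands and the pathway gene Axin2, were picked by name from the 24689 genes of the table. The choice was made with earlier results of these data known. All 8 passed a filter of at least 0.1 TPM in at least 3 mice, as did 22745 genes in all. Wnt7a passed it only through mice that carry the YAP1 transgene, so part of its difference is given by the filter. Poly-A RNA of whole tongue epithelium was sequenced from 19 mice to ask what the human papillomavirus oncogenes E6-E7 and an active form of the Hippo pathway effector YAP do to the epithelial transcriptome, alone and together. Each library is a separate mouse by its label.

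Normal control mice (N, n = 5) carried Krt14-CreERT and LSL-rtTA, with 2 exceptions. N mouse 4 had LSL-rtTA without the Cre driver, and N mouse 5 had Krt14-CreERT with tetON_E6-E7 and tetON_YAP1S127A but no rtTA. E mice (n = 5) carried Krt14-CreERT, LSL-rtTA and tetON_E6-E7. Y mice (n = 3) carried the same driver pair with tetON_YAP1S127A, a YAP1 whose main inhibitory phosphorylation site is mutated so that Hippo kinases no longer hold it back. EY mice (n = 6) carried the driver pair with both transgenes. All mice, aged 8 to 16 weeks, received 3 doses of tamoxifen into the tongue and doxycycline chow, and epithelia were taken 15 days after induction. The Krt14 promoter confines the CreERT to basal keratinocytes and their progeny, but the RNA is that of the whole epithelium peeled from the tongue after collagenase and dispase, so cells without recombination and other cells of the layer may contribute. Whole reads, recovered from the steps of the expression values, numbered 8269674 to 11007304 per mouse, with a median of 9637779 for N mice, 8848776 for E mice, 8679053 for Y mice and 9448942 for EY mice.

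Wnt ligands are lipid-modified glycoproteins. Porcupine acylates them, Wntless carries them to the cell surface, and Frizzled receptors with LRP or ROR co-receptors receive them. In the canonical branch they spare β-catenin from degradation, and β-catenin with TCF/LEF factors then switches on genes such as Axin2, a scaffold of the destruction complex that feeds back on the pathway. In the tongue the pathway is known for forming papillae and taste buds and for maintaining basal progenitors.

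Expression is given in TPM, that is, reads divided by a gene length and scaled to sum to 1000000 in each mouse. In these values 1 TPM does not stand for the same number of transcripts in each gene. The read steps followed the genomic span of a gene, introns included, to within 10% in 14828 of 20163 genes (73.5%), and the longest spliced transcript in 1254 (6.22%). Levels of the ligands were therefore compared from recovered reads divided by transcript length. A summed TPM of a list weighs genes of short span more, and the gene of highest mean TPM in a list need not be the one with most transcripts. Differences between groups were estimated with limma on log2(TPM + 0.1), a scale that understates the change of low genes, and p was adjusted by Benjamini-Hochberg over all 22745 genes. A gene was called at an adjusted p below 0.01 with an absolute log2 fold change above 1. Counts of mice above or below all mice of another group describe the mice and are no test. The share of all genes that separate in this way was not worked out. On this scale 0.1 TPM equals 1.03 to 1.51 reads of Wnt10b, 6.57 to 9.63 reads of Wnt7a and 6.08 to 8.91 reads of Wnt3, depending on the mouse. Wnt10b, Wnt7a and, in EY mice, Wnt3 thus rest on few reads. Whether reads were counted by strand is not given in the sources used here, so reads of an antisense transcript would be counted with the gene.

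EY epithelia had lost most Wnt3 RNA and had gained Wnt7a and Wnt10b RNA, while the abundant ligands Wnt4 and Wnt7b were near their N levels. Wnt3 fell from 1.27 ± 0.384 TPM (SD, n = 5) in N to 0.110 ± 0.104 (SD, n = 6) in EY. Wnt10b rose from 0.428 ± 0.327 TPM to 1.55 ± 0.636, and Wnt7a from 0 in each N mouse to 0.182 ± 0.206 TPM. Of the 8 genes, 2 were called higher in EY than in N and 1 lower, beside 12.6% of all genes tested called higher and 5.71% called lower. So few genes set no share apart from that background, and Wnt7a passed the filter only through mice with the YAP1 transgene. The median log2 fold change was 0.05 over the 8 genes and 0.33 over all genes. Bulk RNA cannot tell fewer cells that express a gene from less RNA per cell.

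The median of 0.33 over all genes depended on scaling. With median-of-ratios scaling the median of all genes in EY against N was 0.01. On that scale Wnt3 was at −3.04, Axin2 at −1.23, Wnt5a at −0.87, Wnt7b at −0.38, Wnt4 at −0.27, Wnt10a at 0.24, Wnt7a at 1.14 and Wnt10b at 1.46. Wnt3 alone of the 8 genes was called on that scale, with Wnt7a at an adjusted p from limma of 0.0111 (6 of 6 EY mice above all N mice in TPM) and Wnt10b at 0.0106 (5 of 6 above). Wnt4 was the 1 member whose sign in EY against N turned, from 0.10. The same scaling moved the median of all genes from 0.13 to −0.03 in Y against N, from 0.26 to 0.04 in EY against E and from 0.18 to 0.02 in EY against Y. The share of calls that were higher, over all genes, went from 68.8% to 43.9% in EY against N, from 75.8% to 57.2% in Y against N, from 61.1% to 38.9% in EY against E and from 67.5% to 56.2% in Y against E.

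**Figure D1:**
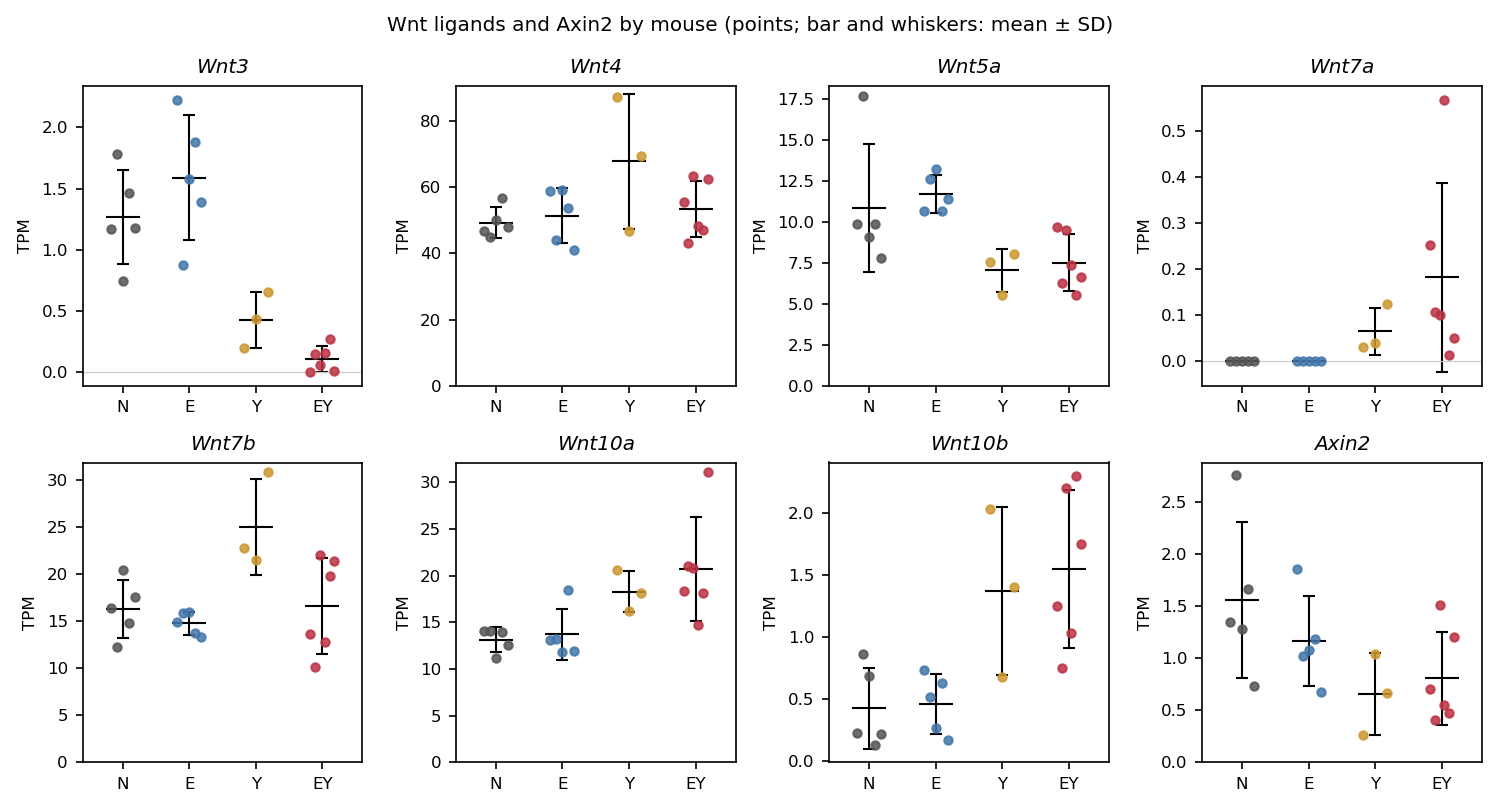
TPM of the 8 genes in each mouse, 1 panel per gene, by group (N, E, Y, EY), with points for mice and bars with whiskers for the mean and SD. The EY points of Wnt3 lie below all N and E points, and Wnt7a is at 0 in every N and E mouse.

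Promoters are shown for the 3 genes called in EY against N, and for Axin2, which is widely read as a reporter of β-catenin activity. Each is the 250 bases before the RefSeq gene start on build GRCm38.p6, which is not the GRCm39 build of the authors' alignment, written 5′ to 3′ on the gene's strand. The Wnt3 window is chr11:103773925-103774174 on the plus strand, that of Wnt7a chr6:91411354-91411603 on the minus strand, that of Wnt10b chr15:98778151-98778400 on the minus strand, and that of Axin2 chr11:108920099-108920348 on the plus strand.
Wnt3: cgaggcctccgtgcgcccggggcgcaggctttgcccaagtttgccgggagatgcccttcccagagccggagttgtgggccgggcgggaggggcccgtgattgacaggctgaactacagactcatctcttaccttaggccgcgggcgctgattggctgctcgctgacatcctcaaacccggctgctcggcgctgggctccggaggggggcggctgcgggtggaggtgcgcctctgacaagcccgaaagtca
Wnt7a: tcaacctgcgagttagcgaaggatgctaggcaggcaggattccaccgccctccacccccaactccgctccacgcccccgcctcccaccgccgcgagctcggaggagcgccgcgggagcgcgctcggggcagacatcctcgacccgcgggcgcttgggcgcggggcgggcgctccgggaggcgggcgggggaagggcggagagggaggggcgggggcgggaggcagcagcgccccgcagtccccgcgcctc
Wnt10b: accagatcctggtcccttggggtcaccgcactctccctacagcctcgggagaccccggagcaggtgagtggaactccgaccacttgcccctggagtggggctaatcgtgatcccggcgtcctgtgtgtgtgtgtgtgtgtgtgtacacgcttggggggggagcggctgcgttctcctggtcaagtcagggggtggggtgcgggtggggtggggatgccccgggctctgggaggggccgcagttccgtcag
Axin2: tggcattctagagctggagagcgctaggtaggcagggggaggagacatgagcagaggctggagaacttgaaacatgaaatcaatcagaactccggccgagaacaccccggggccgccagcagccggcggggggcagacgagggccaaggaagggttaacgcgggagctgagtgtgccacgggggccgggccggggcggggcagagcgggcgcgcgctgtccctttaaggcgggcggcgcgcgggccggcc
All 4 are rich in G and C, at 68.0% for Wnt3, 77.6% for Wnt7a, 66.8% for Wnt10b and 69.2% for Axin2. Together with Wnt4 (85.2%, chr4:137277385-137277634) the median of 5 windows was 69.2%, against 52.4% over all 32851 windows of that length. Windows of Wnt5a, Wnt7b and Wnt10a were not used here. After the expression values had been seen, 4 short motifs were searched on both strands. The TCF/LEF core CTTTGA was in 13.8% of all windows and CTTTGT in 16.5%, the TEAD core GGAATG in 12.6%, and the AP-1 motif TGANTCA in 6.75%. None of these letters occurred in the 5 windows of Wnt3, Wnt4, Wnt7a, Wnt10b and Axin2, which says nothing on sites elsewhere, so no base is printed in capitals.

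Wnt3, a canonical ligand that the embryo needs to form its body axis, was lowest in EY mice, with Y mice between EY and N. N mice had 1.17, 1.78, 0.745, 1.46 and 1.18 TPM of Wnt3, and E mice 2.23, 0.872, 1.58, 1.88 and 1.39 TPM. Y mice had 0.198, 0.435 and 0.656 TPM. EY mice ranged from 0 to 0.271 TPM with a median of 0.108. All 6 EY mice and all 3 Y mice lay below each N and each E mouse, and 5 of 6 EY mice lay below each Y mouse. Summed over mice, N mice gave 497 reads of Wnt3, E mice 562, Y mice 86 and EY mice 46, which is 10.3, 12.7, 3.28 and 0.790 reads per 1000000 reads. The log2 fold change of Wnt3 in EY against N was −2.81 (SE 0.37, 95% interval −3.58 to −2.03), with a Benjamini-Hochberg adjusted p from limma of 8.18e-06 and all 6 EY mice lower. It was called in each of the 19 fits without 1 mouse, at −3.00 to −2.62, and in each of 14 other settings, at −4.62 to −1.02. In the order of levels, E, N, Y, EY, no neighbours were called different, and of those neighbours Y and N had the lowest adjusted p from limma, 0.0364, at a log2 fold change of −1.42 with 3 of 3 Y mice lower.

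Wnt7a, which patterns the limb and the female reproductive tract, was read only in mice with the YAP1 transgene. No read of Wnt7a was recovered among 48188751 reads of N and 44197716 reads of E. Y mice had 0.0304, 0.0402 and 0.124 TPM (2, 3 and 9 reads). EY mice had 0.0139 to 0.569 TPM with a median of 0.104 (1 to 42 reads, 81 in all). Each Y and each EY mouse was thus above every N and E mouse, but 2 of 6 EY mice lay above all Y mice, and EY mouse 4 gave 42 of the 81 reads. Counting N at the 3 reads that a count of 0 allows over the group, Wnt7a was at least 22.3-fold higher in EY and at least 8.58-fold higher in Y, and without EY mouse 4 at least 12.9-fold higher in EY. Against E the bounds were at least 20.5-fold in EY, at least 11.8-fold in EY without EY mouse 4, and at least 7.87-fold in Y. These bounds allow for counting error only in the group at 0. The pooled reads of Y and EY were taken as counted, and the spread between mice is not covered. Y mouse 3 gave 9 of the 14 reads in Y, and no bound without that mouse was worked out. The fitted log2 fold change of Wnt7a in EY against N was 1.23 (SE 0.34, 95% interval 0.51 to 1.95, adjusted p from limma 0.00714, higher in 6 of 6 EY mice). Wnt7a entered this fit only through mice with the YAP1 transgene, so its p and call are not independent support for the difference. The call was lost in 8 of 19 fits without 1 mouse, with adjusted p at 0.0142 without N mouse 1 or N mouse 2, 0.0148 without N mouse 3, 0.0153 without N mouse 4, 0.0152 without N mouse 5, 0.0184 without EY mouse 1 and 0.0107 without EY mouse 2, and with a log2 fold change of 0.93 without EY mouse 4; over these 19 fits adjusted p ran from 0.00159 to 0.0184. It was also lost with a pseudocount of 1 TPM (0.23), after scaling by median of ratios (1.14) or by quantiles (1.12), with N reduced to the 3 mice that had Cre and rtTA, and in a fit of the compared groups alone. In the order of levels, EY, Y and then E and N at 0, limma called no neighbours different, although each Y mouse lay above every E mouse.

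Wnt10b, a canonical ligand that promotes hair follicle growth and bone and restrains fat cell formation, was higher in EY than in N. N mice had 0.230, 0.867, 0.688, 0.132 and 0.224 TPM of Wnt10b (2 to 11 reads), and E mice 0.736, 0.523, 0.266, 0.629 and 0.169 TPM (2 to 10 reads). Y mice had 2.04, 0.683 and 1.41 TPM (8 to 21 reads). EY mice ranged from 0.752 to 2.30 TPM with a median of 1.503 (10 to 26 reads). Among the EY mice 5 of 6 exceeded each N mouse and all 6 exceeded each E mouse, and Y and EY mice overlapped. The log2 fold change in EY against N was 1.77 (SE 0.44, 95% interval 0.85 to 2.69, adjusted p from limma 0.00319, 5 of 6 EY mice above all N mice). Wnt10b was not called without N mouse 4 (1.53, adjusted p 0.0120) or N mouse 5 (1.65, adjusted p 0.0105), in a range of 0.00122 to 0.0120 over the 19 fits without 1 mouse. The call was also lost with a pseudocount of 1 TPM (0.83), with median-of-ratios scaling (1.46, adjusted p 0.0106), with voom on recovered reads (1.57, adjusted p 0.0165) and with only the 3 N mice that had Cre and rtTA (1.29, adjusted p 0.04996). The levels ran EY, Y, E, N, and no neighbours were shown to differ.

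Wnt10a, a ligand of teeth, hair and tongue papillae, had higher values in each Y and EY mouse than in any N mouse. N mice had 14.04, 14.1, 11.2, 13.98 and 12.5 TPM, E mice 13.2, 13.2, 11.9, 18.4 and 12.0 TPM, and Y mice 20.6, 16.3 and 18.1 TPM. EY mice ranged from 14.8 to 31.1 TPM with a median of 19.6. All 6 EY and all 3 Y mice lay above each N mouse, whereas E mouse 4 overlapped both. The log2 fold change in EY against N was 0.62 (SE 0.16, 95% interval 0.29 to 0.95, adjusted p from limma 0.00391, 6 of 6 EY mice higher), below the limit on the fold, so Wnt10a was not called. With median-of-ratios scaling it was 0.24 with an adjusted p of 0.215. The levels ran EY, Y, E, N, with no neighbours shown to differ.

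Wnt7b, known from the branching lung and from blood vessels of the brain, was highest in Y. N mice had 16.4, 12.2, 20.4, 14.8 and 17.5 TPM, E mice 14.9, 15.8, 15.9, 13.8 and 13.3 TPM, and Y mice 22.7, 21.4 and 30.8 TPM. The EY range was 10.1 to 22.0 TPM with a median of 16.7. All 3 Y mice were above every N and E mouse, and 5 of 6 EY mice were below every Y mouse, while EY overlapped N and E. The log2 fold change was −0.01 in EY against N (95% interval −0.41 to 0.39, adjusted p from limma 0.976, 2 of 6 EY mice above and 1 below all N mice) and 0.62 in Y against N (SE 0.23, adjusted p 0.0775, 3 of 3 Y mice higher), and neither was called. The levels ran Y, EY, N, E, with no neighbours shown to differ.

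Wnt4, which directs kidney tubule and ovary development and often acts outside β-catenin, had the highest mean share of the ligand pool per transcript length in each group, with Wnt7b close to it in Y (39.9% and 39.0%). N mice had 46.8, 44.8, 50.2, 56.7 and 47.8 TPM, E mice 58.9, 44.0, 59.2, 53.6 and 41.1 TPM, and Y mice 87.2, 46.7 and 69.5 TPM. The EY range was 43.2 to 63.5 TPM with a median of 51.8. The 4 groups overlapped, with Y mouse 1 the highest. At 1459 to 2690 reads per mouse depth was no limit, and the interval of the log2 fold change in EY against N was −0.21 to 0.42 around 0.10 (adjusted p from limma 0.631, 2 of 6 EY mice above and 1 below all N mice), which turned to −0.27 with median-of-ratios scaling, −0.28 with voom and −0.31 with quantile normalization. The levels ran Y, EY, E, N, with no neighbours shown to differ.

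Wnt5a, the classic ligand of the branch that works without β-catenin and steers cell movement, had its lowest levels in Y and EY mice and was not called. N mice had 9.89, 17.7, 9.08, 9.86 and 7.79 TPM, E mice 10.7, 12.6, 13.2, 10.7 and 11.4 TPM, and Y mice 7.59, 5.57 and 8.03 TPM. Values of 5.54 to 9.71 TPM were found in EY mice, with a median of 7.02. All 6 EY and all 3 Y mice lay below each E mouse, while 4 of 6 EY and 2 of 3 Y mice lay below each N mouse. N mouse 2 stood apart at 17.7 TPM. The log2 fold change in EY against N was −0.50 (SE 0.19, adjusted p from limma 0.0461, 4 of 6 EY mice below all N mice), and without N mouse 2 it was −0.31 (adjusted p 0.142), in a range of −0.60 to −0.31 over the 19 fits without 1 mouse. Relative to the median of all genes it was lower still, at −0.87 with median-of-ratios scaling and an adjusted p of 0.000549, yet within the fold limit. The levels ran E, N, EY, Y; EY and N were the only neighbours with an adjusted p below 0.05, and none were called.

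Axin2, the negative feedback gene of the canonical branch, was lower on average in Y and EY mice, with overlap. N mice had 1.35, 2.75, 1.28, 1.67 and 0.729 TPM, E mice 1.85, 1.02, 1.08, 1.19 and 0.680 TPM, and Y mice 0.261, 1.04 and 0.665 TPM. EY mice ranged from 0.404 to 1.51 TPM with a median of 0.6252. The 2 lowest of 3 Y mice and 4 of 6 EY mice lay below every N mouse, and no EY mouse reached N mouse 2 or N mouse 4. N mice gave 419 reads of Axin2, E mice 288, Y mice 92 and EY mice 231. Its log2 fold change was −0.89 in EY against N (SE 0.39, 95% interval −1.71 to −0.07, adjusted p from limma 0.0771, 4 of 6 EY mice below all N mice), which is not past either limit. With voom on recovered reads Axin2 was called, at −1.39 with an adjusted p of 0.00406, and with median-of-ratios scaling it was −1.23 with 0.0147; fits without 1 mouse gave −1.11 to −0.66 with adjusted p from 0.0332 to 0.201. Axin2 ran N, E, EY, Y in level, and no neighbours were shown to differ.

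**Figure D2:**
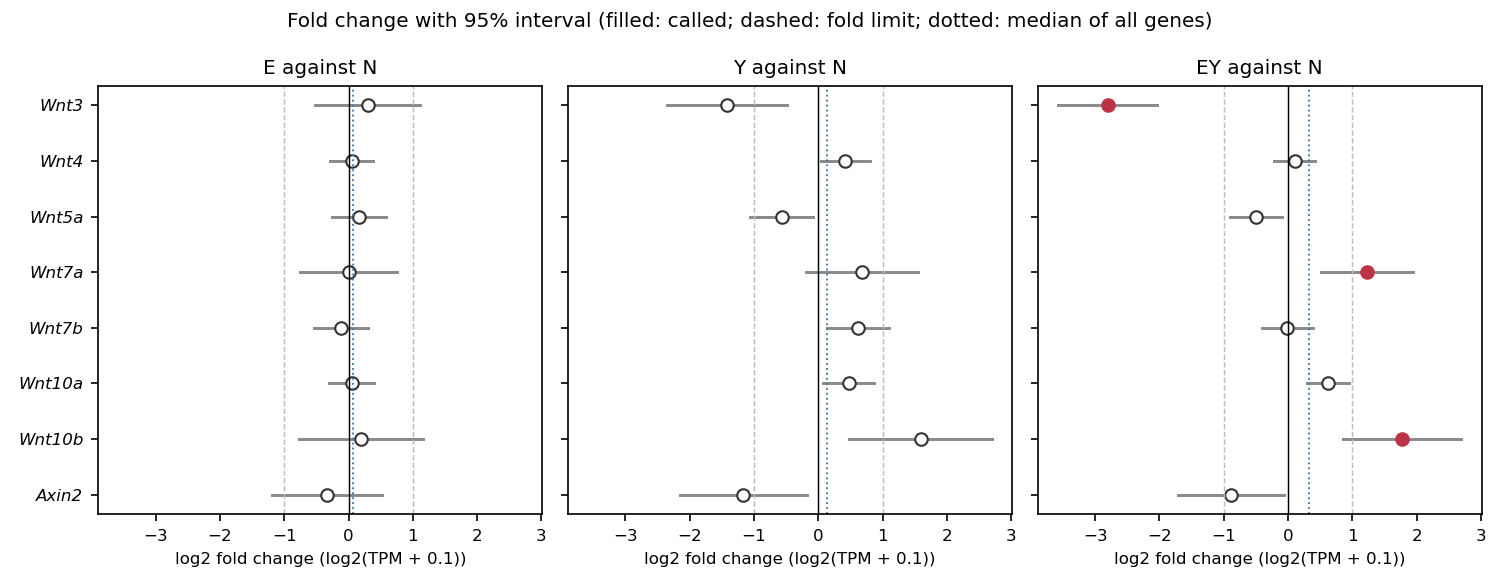
Log2 fold change of TPM + 0.1 of the 8 genes in E, Y and EY against N, with 95% intervals; filled points were called, dashed lines mark −1 and 1, and the dotted line is the median of all genes. In EY the called genes are Wnt3 at −2.81, Wnt7a at 1.23 and Wnt10b at 1.77.

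With YAP1S127A alone no member was called. Wnt3 was lower in each Y mouse than in any N mouse, and Wnt7b and Wnt10a were higher. The share of all genes so separated was not worked out. In Y against N, Wnt3 was at −1.42 (SE 0.44, adjusted p from limma 0.0364, 3 of 3 Y mice lower), Wnt10b at 1.59 (SE 0.53, adjusted p 0.0484, 2 of 3 above all N mice) and Axin2 at −1.17 (SE 0.47, adjusted p 0.104, 2 of 3 below all N mice). Wnt7a had 14 reads in Y and 0 in N, with a fitted 0.68 (adjusted p 0.302, 3 of 3 higher). Wnt5a was at −0.57, Wnt4 at 0.42, Wnt10a at 0.47 and Wnt7b at 0.62. With limma 0 of 8 genes were called, beside 3.47% of all genes higher and 1.11% lower; voom on recovered reads also called 0. At an unadjusted p below 0.05 stood 7 of the 8 genes, beside 28.9% of all genes. The median log2 fold change was 0.44 over the 8 genes and 0.13 over all.

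With E6-E7 alone no member was called, and the group means lay near those of N. In E against N the log2 fold changes ran from −0.34 for Axin2 (adjusted p from limma 0.793, 1 of 5 E mice below all N mice) to 0.30 for Wnt3 (adjusted p 0.813, 2 of 5 above), and the small positive values of Wnt4 (0.05) and Wnt10a (0.05) turned negative with median-of-ratios scaling (−0.06 and −0.07). Wnt7a had no reads in either group. The limma count of 0 stood beside 1.16% of all genes called higher and 0.044% lower, voom also called 0, and 0 of 8 genes had an unadjusted p below 0.05, beside 14.8% of all genes. Medians were 0.05 over the 8 genes and 0.07 over all. These 3 comparisons use the same N mice, so they are not independent of each other.

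With YAP1S127A added to E6-E7, Wnt3, Wnt10b and Wnt7a were called, in a comparison that shares its 6 EY mice with EY against N. In EY against E, Wnt3 fell by 3.102 on the log2 scale (SE 0.37, adjusted p from limma 4.49e-06, 6 of 6 EY mice below all E mice). Wnt10b rose by 1.57 (SE 0.44, adjusted p 0.00897, 6 of 6 above all E mice) and Wnt7a by a fitted 1.23 (adjusted p 0.00875, 6 of 6 above). The 2 genes called higher and 1 called lower stood beside 7.82% and 4.99% of all genes. Wnt7a was in this test, too, only through mice with the YAP1 transgene. Only Wnt3 was called in each of the 19 fits without 1 mouse: Wnt7a was not called in 16 of them (adjusted p from 0.00201 to 0.0220), all but those without Y mouse 3, EY mouse 5 or EY mouse 6, and Wnt10b not in 12 (adjusted p from 0.00614 to 0.0303), those without N mouse 1 or 5, E mouse 2, 3, 4 or 5, Y mouse 3 or any EY mouse but 2. The Wnt10b call was also lost in 8 of 14 other settings and the Wnt7a call in 6 of 13, among them median-of-ratios scaling and quantile normalization for both. Wnt10a was at 0.57 (adjusted p 0.00828, 3 of 6 EY mice above all E mice), which fell short of the fold limit and became 0.31 with median-of-ratios scaling. Wnt5a was at −0.66 (adjusted p 0.0117, 6 of 6 EY mice below all E mice) and Axin2 at −0.55 (adjusted p 0.298, 3 of 6 below). Wnt4 (0.05) and Wnt7b (0.12) turned to −0.21 and −0.15 with median-of-ratios scaling. Medians were 0.08 over the 8 genes and 0.26 over all.

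Adding E6-E7 to YAP1S127A made no member pass. In EY against Y, Wnt3 was at −1.39 (SE 0.43, adjusted p from limma 0.0535, 5 of 6 EY mice below all Y mice) and Wnt7b at −0.63 (SE 0.22, adjusted p 0.0922, 5 of 6 below). Wnt4 was at −0.32 and Wnt7a at 0.55. Wnt5a (0.07) and Wnt10a (0.15) turned to −0.10 and −0.03 with median-of-ratios scaling, and Wnt10b (0.18) and Axin2 (0.28) both turned to −0.02 with quantile normalization. Of the 8 genes limma called 0, beside 1.07% of all genes higher and 0.928% lower (243 and 211 genes, but 123 and 283 with median-of-ratios scaling), voom called 0, and 2 had an unadjusted p below 0.05, beside 23.9% of all genes. With 3 Y mice the intervals were wide.

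Y against E gave 0 limma calls among the 8 genes, beside 1.67% of all genes higher and 0.805% lower, and 0 with voom. At an unadjusted p below 0.05 stood 5 of them, beside 23.3% of all genes. Wnt3 was at −1.72 (adjusted p from limma 0.0199, 3 of 3 Y mice below all E mice), Wnt5a at −0.74 (adjusted p 0.0526, 3 of 3 below) and Wnt7b at 0.74 (adjusted p 0.0493, 3 of 3 above). Wnt10b was at 1.39 (adjusted p 0.112, 2 of 3 above) and Axin2 at −0.83 (adjusted p 0.312, 2 of 3 below). Wnt4 was at 0.37, Wnt10a at 0.43 and Wnt7a at 0.68.

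Whether the transgenes together differ from the sum of their single effects was tested as EY − E − Y + N on the log2 scale. Wnt3 was at −1.68 (SE 0.58, adjusted p from limma 0.196), with 5 of 6 EY mice below every mouse of the other groups. Axin2 was at 0.61, Wnt7a at 0.55, Wnt10a at 0.10, Wnt10b at −0.02, Wnt5a at −0.09, Wnt4 at −0.36 and Wnt7b at −0.50. Limma called 0 of the 8 genes, beside 0.176% of all genes in either direction; voom also called 0, and Wnt3 alone had an unadjusted p below 0.05, beside 13.5% of all genes. That Wnt3 was called in EY and not in Y is therefore not shown to be a departure from additive effects.

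Per transcript length, the ligand pool of the tongue was mainly Wnt4 and Wnt7b. Recovered reads of 15 ligands were divided by the length of the longest transcript and by depth. Wnt4 made up 40.3% of the pool in N and 40.6% in EY, and Wnt7b 34.6% in N and 32.2% in EY. Wnt10a was next, at 10.5% in N and 15.2% in EY, and then Wnt5a at 5.49% and 3.55%. Wnt3 went from 2.82% in N and 3.45% in E to 0.701% in Y and 0.245% in EY. Wnt10b went from 0.182% in N to 0.592% in EY, and Wnt7a from 0% to 0.436 ± 0.533% (SD, n = 6), with 1 EY mouse at 1.45%. The 7 ligands together held 93.9 ± 1.20% (SD, n = 5) of the pool in N, 93.7 ± 1.65% (n = 5) in E, 93.4 ± 1.57% (n = 3) in Y and 92.8 ± 0.964% (n = 6) in EY. The whole pool was 119.0 ± 7.35 RPKM (reads per kilobase and 1000000 reads, ± SD) for N mice, 117.3 ± 14.6 for E mice, 151.7 ± 19.5 for Y mice and 114.9 ± 23.1 for EY mice. The EY mice, at 87.7 to 143.1, spanned the N mice, at 108.0 to 126.2, so the 3 called ligands made up a small part of a pool of similar size.

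Likeness to other genes was measured over the 19 mice as the root mean square difference between profiles of log2(TPM + 0.1), each centred on its mean, among 15588 genes with a mean of at least 1 TPM. The genes most like Wnt3, whose own profile had a root mean square of 1.43, were Bambi (0.45), Hephl1 (0.48) and Sec14l4 (0.56). Bambi, a decoy receptor of the TGF-beta family, had group means of 46.7 (N), 45.9 (E), 17.4 (Y) and 5.77 TPM (EY). Hephl1, a copper ferroxidase, went through 8.09, 9.09, 2.91 and 0.711 TPM in the same groups. Nearest to Wnt10b (1.04) were Card10 (0.53), Igfbp2 (0.53) and Ajuba (0.55). Ajuba, a LIM protein of cell junctions that binds Hippo kinases, had means of 38.0 (N), 45.1 (E), 76.9 (Y) and 92.3 TPM (EY), and Igfbp2, which binds insulin-like growth factors, 78.6, 73.1, 212.1 and 193.3 TPM. Nearest to Axin2 (0.72) were Sox4 (0.41), Dtx3 (0.43) and Gm6421 (0.44), and Sox4 had means of 47.7 (N), 38.8 (E), 32.4 (Y) and 25.1 TPM (EY). Nearest to Wnt7a (0.74) were Trmo (0.35), Myl12a (0.36) and Got1 (0.37), a match in which Wnt7a was at 0 in all 5 N and all 5 E mice.

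Other genes of the pathway were taken from lists by role, chosen with earlier results of these data known. Their counts beside those of all genes are thus no independent comparison. Of 12 other Wnt ligands 6 were tested, with a median log2 fold change of −0.25 in EY against N, against 0.33 over all genes. Of these ligands 2 were called higher and 0 lower, beside 12.6% and 5.71% of all genes. Wnt9a, which acts in joint formation, averaged 0.514 ± 0.146 TPM (SD) over the 5 N mice and rose to 1.65 ± 0.404 over the 6 EY mice, a log2 fold change of 1.51 (SE 0.29, adjusted p from limma 0.000346, 6 of 6 EY mice above all N mice). It was also called in Y against N, at 1.87 (adjusted p 0.00128, 3 of 3 Y mice), though not without Y mouse 3 (1.78, adjusted p 0.0113) or with only the 3 N mice that had Cre and rtTA (1.75, adjusted p 0.0120). Wnt6, a ligand of surface epithelia, went from 0.981 ± 0.323 TPM to 2.69 ± 1.24 in EY (log2 1.27, adjusted p 0.00518, 4 of 6 EY mice above all N mice). The Wnt6 call was lost in 8 of 14 other settings, among them median-of-ratios scaling (0.92), quantile normalization (1.02) and voom (0.94), and without any of N mouse 1, 2, 4 or 5 or EY mouse 3, 4, 5 or 6, at adjusted p of up to 0.0169.

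Of the 2 genes that prepare the ligands for export, 1 was called lower and 0 higher in EY against N. The shares over all genes were 5.71% and 12.6%. Porcn, the acyltransferase without which Wnt proteins are not secreted, averaged 73.4 ± 9.10 TPM (SD) over the 5 N mice and fell to 21.0 ± 5.34 over the 6 EY mice. N mice had 59.6, 76.8, 84.7, 72.6 and 73.1 TPM, Y mice 37.7, 52.0 and 51.2 TPM, and EY mice 14.4 to 29.1 TPM, while E mice had 71.0 to 87.3 TPM. The EY, Y and N mice thus formed 3 ranges that did not overlap, and E mice overlapped that of N, with 2 of 5 above it. The log2 fold change of Porcn was −1.83 in EY against N (SE 0.15, adjusted p from limma 5.47e-08, 6 of 6 EY mice lower), −1.96 in EY against E and −1.18 in EY against Y (adjusted p 0.000797, 6 of 6 below all Y mice). In Y against N it was −0.65 (adjusted p 0.0226, 3 of 3 lower), which was not called. Wls, the carrier of the acylated ligand, averaged 5.67 TPM in N (4.96 to 6.90) and was higher in EY, at 7.81 (6.65 to 9.05). It was not called.

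Of 10 Frizzled genes limma called 1 higher and 1 lower in EY against N, beside 12.6% and 5.71% of all genes, with a median of −0.38. Voom called 1 higher and 4 lower, beside 1580 and 2238 of all genes. Fzd1 fell from 63.6 ± 16.5 TPM to 27.5 ± 14.4 (log2 −1.33, adjusted p from limma 0.00106, 6 of 6 EY mice below all N mice). Fzd9 had 0 reads in N and 38 in EY, with reads in 5 of 6 EY mice, 1 read in E and 3 in Y. Counting N at 3 reads, that is at least 10.5-fold higher, with the EY reads taken as counted. EY mouse 6 gave 17 of the 38 reads and EY mouse 4 gave 12. Of the N and E mice only E mouse 3 reached 0.1 TPM. Fzd9 thus passed the filter through mice with the YAP1 transgene, and part of its difference is given by the filter. Fzd7 fell in Y from 50.0 ± 14.5 TPM to 17.4 ± 3.23 (log2 −1.48, adjusted p 0.000667, 3 of 3 Y mice lower) and in EY was at −0.99 (adjusted p 0.000894, 6 of 6 EY mice lower), just inside the fold limit. The Fzd9 call was lost with a pseudocount of 1 TPM, with only the groups compared or with only the 3 N mice that had Cre and rtTA, and the Fzd7 call in Y with only the groups compared (adjusted p 0.0117). The co-receptor list had 0 calls among 4 tested in EY against N with limma and with voom, and 2 at an unadjusted p below 0.05, beside 48.6% of all genes. Ryk, a pseudokinase co-receptor, went from 7.76 ± 0.693 TPM to 12.6 ± 0.856 in EY (log2 0.69, adjusted p 9.68e-05, 6 of 6 EY mice above all N mice), inside the fold limit and at 0.32 with median-of-ratios scaling. Of 4 tested genes of the R-spondin module, which sets Frizzled turnover, 1 was called lower and 0 higher in EY against N. The shares over all genes were 5.71% and 12.6%. Lgr6, a receptor of epithelial stem cells, went from 0.613 TPM to 0.0560 (log2 −2.12, adjusted p from limma 2.44e-05, 6 of 6 lower).

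**Figure D3:**
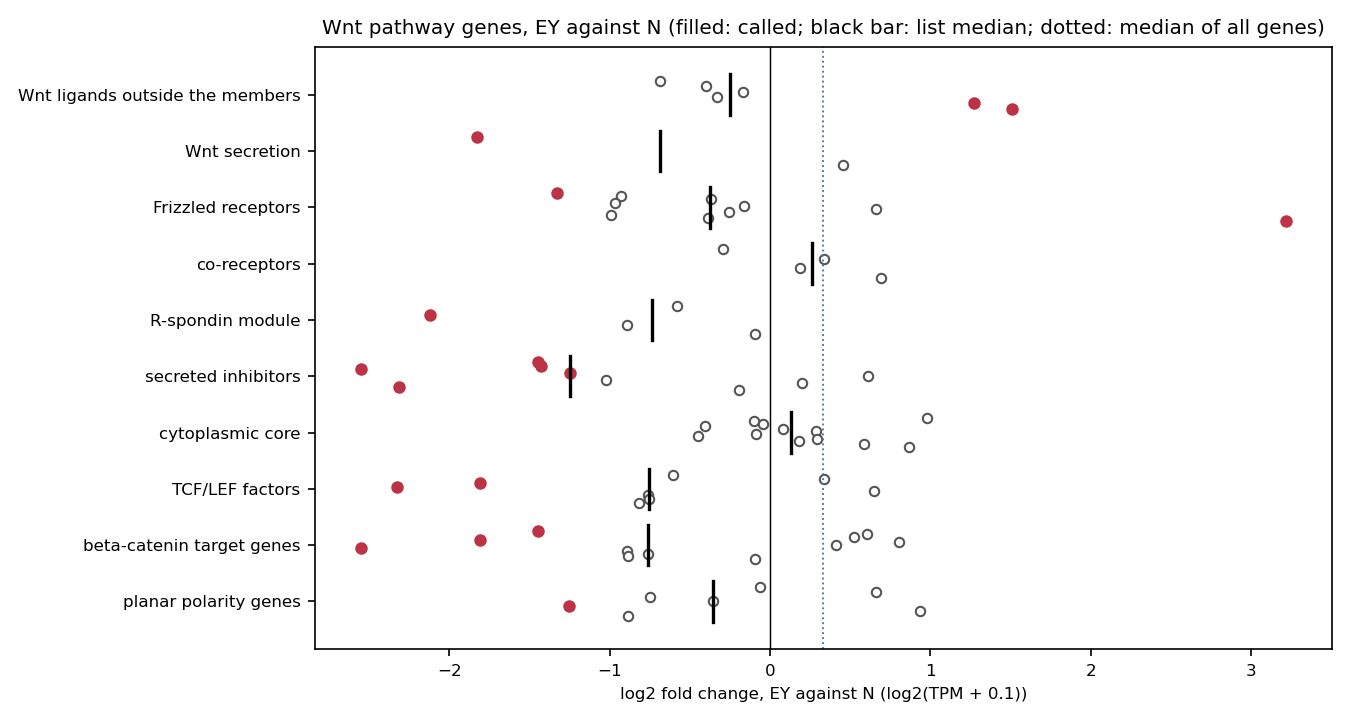
Log2 fold change of TPM + 0.1 in EY against N of each tested gene of the pathway lists, with filled points for called genes, a black bar for the median of each list and a dotted line for the median of all genes (0.33). Secreted inhibitors have the lowest median, −1.25, and Porcn stands at −1.83.

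Among the pathway lists, that of secreted inhibitors, which also holds the membrane protein Apcdd1, had the most limma calls in EY against N. Voom made 5 calls in it and as many in the Frizzled, TCF/LEF and β-catenin target lists. Over all 22745 genes voom called 1580 higher and 2238 lower. In EY against N 5 of 9 tested genes were called lower and 0 higher, beside 5.71% of all genes called lower, with a list median of −1.25 against 0.33 over all genes. Sostdc1, an antagonist of Wnt and BMP that spaces papillae and teeth, fell from 33.7 ± 7.93 TPM (SD, n = 5) to 6.68 ± 1.44 (n = 6), at −2.31 (adjusted p from limma 9.81e-07, 6 of 6 EY mice lower). Notum, the enzyme that strips the acyl group from Wnt, fell from 9.49 ± 4.64 TPM to 1.61 ± 1.03, at −2.55 (adjusted p 7.12e-05, 6 of 6 lower). Apcdd1, a membrane inhibitor of hair follicles, fell from 23.8 ± 7.41 TPM to 8.47 ± 1.73, at −1.45 (adjusted p 1.65e-05, 6 of 6 lower). Dkk3 fell from 4.58 ± 1.14 TPM to 1.76 ± 0.886, at −1.43 (adjusted p 0.000497, 6 of 6 lower). In Y against N limma called 1 of the 9, beside 1.11% of all genes called lower. Voom called 3, beside 572 of all genes higher and 471 lower. The limma call was Sostdc1 at 11.2 ± 1.59 TPM (log2 −1.55, adjusted p from limma 0.00196, 3 of 3 lower). It was lost without Y mouse 3 (−1.46, adjusted p 0.0156). It was also lost with only the 3 N mice that had Cre and rtTA (−1.38, adjusted p 0.0187). In EY against E 5 were called lower, beside 4.99% of all genes, with a median of −1.41 against 0.26 over all genes. In E against N limma and voom called 0, and 0 had an unadjusted p below 0.05. As summed TPM the inhibitors stood at 79.2 ± 14.3 for N mice, 75.8 ± 21.3 for E mice, 36.0 ± 1.67 for Y mice and 22.6 ± 5.81 for EY mice, and the EY mice (15.03 to 30.4) lay below the Y mice (34.4 to 37.7), which lay below the N mice (66.4 to 101.0).

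Inside the cell the picture was mixed. None of 12 tested genes of the cytoplasmic core, the β-catenin destruction complex and its partners, was called in EY against N by limma or voom, 6 had an unadjusted p below 0.05, beside 48.6% of all genes, and the median was 0.13. Tnks2, a tankyrase that marks Axin for degradation, went from 13.4 TPM to 24.5 (log2 0.87, adjusted p from limma 7.67e-06, 6 of 6 EY mice above all N mice), inside the fold limit. Among 8 TCF/LEF factors and their partners 2 were called lower in EY and 0 higher, beside 5.71% of all genes called lower, with a median of −0.76, and voom called 5 lower, beside 2238 of all genes. Lef1, the TCF/LEF factor of hair and papilla formation, fell from 0.924 ± 0.320 TPM to 0.204 ± 0.121, at −1.81 (adjusted p 0.000192, 6 of 6 lower). Pygo1, a cofactor of β-catenin, fell from 1.08 ± 0.367 TPM to 0.186 ± 0.229, at −2.32 (adjusted p 0.00167, 6 of 6 lower), and was not called with a pseudocount of 0.01 TPM (−3.46, adjusted p 0.0108).

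Genes often used as β-catenin targets lay on both sides of 0 in EY. Of 11 tested, 3 were called lower in EY against N and 0 higher, beside 5.71% and 12.6% of all genes. The median was −0.76 against 0.33 over all genes. The 3 called were Notum, Lef1 and Apcdd1, which other lists also hold. In Y against N limma and voom called 0, and 7 had an unadjusted p below 0.05, beside 28.9% of all genes, with a median of −0.53. Myc was at 0.80 in EY against N, Ccnd1 at 0.61, Cd44 at 0.52 and Nkd2 at 0.41, none of them called and all chosen after their values were seen, and the summed TPM of the list was 218.2 for N mice and 294.9 for EY mice. Ccnd1, the G1 cyclin, had 96.4 TPM for N mice, 55.5 for E mice, 146.8 for Y mice and 147.7 for EY mice. Its log2 fold change was −0.83 in E against N (adjusted p from limma 0.0356, 4 of 5 E mice below all N mice), not called, and it was called higher in EY against E, at 1.44 (adjusted p 2.60e-05, 6 of 6 EY mice above all E mice), and in Y against E, at 1.46 (adjusted p 0.00110, 3 of 3 Y mice above). Of 7 planar polarity genes, which orient cells in the sheet, 1 was called lower in EY and 0 higher. The shares over all genes were 5.71% and 12.6%. Prickle2 fell from 0.493 TPM to 0.146, at −1.25 (adjusted p from limma 7.84e-05, 6 of 6 lower). In E against N limma called 0 genes of any pathway list, with unadjusted p below 0.05 in 2 other ligands, 2 genes of the core, 1 TCF/LEF factor and 1 target, and voom called 0. The genes of smallest unadjusted p in E against N were Wnt16 (−1.38), Wls (−0.22), Fzd4 (−0.70), Ryk (−0.14), Lgr6 (−0.48), Sfrp4 (−1.62), Csnk1e (0.39), Pygo2 (0.42), Ccnd1 and Celsr3 (0.52), 1 from each list. In Y against N, among lists without a limma call, they were Porcn, Ryk (0.38), Lgr6 (−1.05), Apc (0.59), Tcf7l2 (−0.73), Myc (0.55) and Vangl1 (0.66). Voom called 1 TCF/LEF factor, Tcf7l2 at −1.16, and 1 planar polarity gene lower in Y against N, beside 471 of all genes lower. Pathway genes named as called in comparisons with N kept their direction with median-of-ratios scaling, quantile normalization and voom. With a pseudocount of 1 TPM the low genes Wnt9a (0.80), Lgr6 (−0.59), Lef1 (−0.67), Pygo1 (−0.81) and Prickle2 (−0.38) came inside the fold limit in EY against N.

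**Figure D4:**
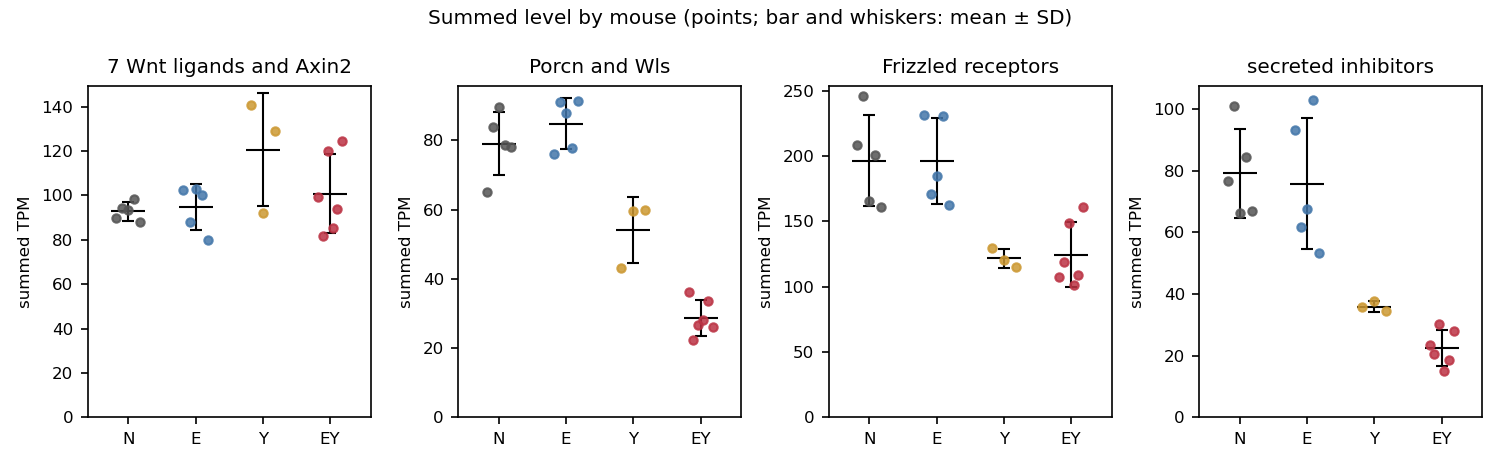
Summed TPM by mouse and group of the 8 genes, of Porcn and Wls, of the Frizzled receptors and of the secreted inhibitors, with points for mice. EY mice have 22.3 to 36.2 TPM of Porcn and Wls against 65.1 to 89.6 in N, whereas the sums of the 8 genes overlap. The sum of Porcn and Wls is mostly Porcn in TPM, and Wls alone was higher on average in EY than in N.

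As sums, the 8 genes stood at 92.8 ± 4.18 TPM (SD) for N mice, 94.8 ± 10.3 for E mice, 120.6 ± 25.3 for Y mice and 100.8 ± 17.7 for EY mice, with overlapping ranges. Porcn and Wls together came to 79.0 ± 9.08 TPM for N mice, 54.2 ± 9.46 for Y mice and 28.8 ± 5.17 for EY mice. This sum is mostly Porcn, because TPM followed gene span. In recovered reads the 5 N mice gave 8208 of Porcn and 4987 of Wls, and the 6 EY mice 2500 and 7370. Frizzled receptors came to 196.5 ± 34.9 TPM for N mice, 122.0 ± 7.30 for Y mice and 124.4 ± 24.9 for EY mice, where N mice began at 161.2 and 1 EY mouse reached 161.3.

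Markers of the epithelium and of other cells differed between groups and mice. Apart from a fit without the mice of highest muscle sum, their part in the Wnt values was not tested. The marker counts in EY against N stand beside 12.6% of all genes called higher and 5.71% called lower. The squamous list was measured in full (9 of 9 genes), with Krt13 the highest in mean TPM and no marker at 0, and 2 genes were called higher and 3 lower in EY against N. Krt13, the keratin of differentiating oral mucosa, fell from 71110.0 to 20860.0 TPM (log2 −1.75, adjusted p from limma 6.16e-05, 6 of 6 EY mice below all N mice), and Krt14, that of basal cells, rose from 6048 to 16720.0 TPM (1.43, adjusted p 0.000402, 6 of 6 above). Krt4, another keratin of the upper layers, fell by 1.61 (adjusted p 0.00017, 6 of 6 below all N mice), and Krt15, a basal keratin, fell by 1.27 (adjusted p 0.00281, 6 of 6 below all N mice), a call lost with only the 3 N mice that had Cre and rtTA (adjusted p 0.0176). Cdh1, the E-cadherin of cell junctions and the other gene called higher, was at 1.16 and is named after its values were seen, and Krt5 (0.98), Itga6 (0.94), Krt6a (0.40) and Trp63 (0.02) were not called; the list median was 0.40 in EY against N. The summed squamous level, most of it Krt13 and Krt4 in N mice, was 152000.0, 82510.0, 117100.0, 127400.0 and 122600.0 TPM in N mice, 82150.0 to 134500.0 in E mice, 124900.0, 66130.0 and 95270.0 in Y mice, and 53530.0 to 81430.0 in EY mice with a median of 65820.0. Each EY mouse thus had a lower sum than any N mouse, although 6 of the 9 genes were above 0 on the log2 scale. In Y against N limma called 0 genes of the list. Krt14 was at 1.33 there (adjusted p from limma 0.0108, 3 of 3 Y mice above all N mice). Quantile normalization and voom called Krt14 higher in Y.

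Fibroblast, muscle and immune markers were present in uneven amounts. Of 8 fibroblast markers 7 were tested and 1 was called lower in EY, Dcn, which went from 61.4 TPM to 13.8 (log2 −2.36, adjusted p from limma 0.000249, 6 of 6 EY mice lower) and had the highest mean TPM of the list over the 19 mice. The other 6, none of them called, were above 0 on the log2 scale in EY against N. They were Col1a1 at 0.32, Col1a2 at 0.33, Col3a1 at 0.45, Pdgfrb at 0.47, Lum at 0.49 and Pdgfra at 1.08. The median of the list was thus 0.45. In Y against N the list median was −1.55, with 0 limma calls. Dcn was then at −1.86 (adjusted p from limma 0.0206, 3 of 3 Y mice below all N mice). Quantile normalization and voom called Dcn lower in Y. Fibroblast sums were 294.3, 203.9, 86.5, 74.0 and 61.6 TPM in N mice, 57.2 to 104.9 in E mice, 24.0, 44.2 and 34.6 in Y mice, and 24.4 to 154.1 in EY mice with a median of 73.1. Of 8 skeletal muscle markers limma and voom called 0 in EY against N, and 1 had an unadjusted p below 0.05, beside 48.55% of all genes. Their median was 1.77 in EY against N, 2.27 in EY against E and 2.62 in EY against Y. Over all genes it was 0.33, 0.26 and 0.18. At an unadjusted p from limma below 0.05 stood 6 of them in EY against E, beside 43.57% of all genes. In EY against Y 5 did, beside 23.85%, and limma called 0 in both. Muscle sums, with Acta1 the highest in mean TPM, were 58.7, 233.7, 12.1, 40.2 and 49.2 TPM in N mice, 11.4 to 132.0 in E mice, 7.23, 137.9 and 16.7 in Y mice, and 34.8 to 1271 in EY mice with a median of 166.2. A fit without the N and the EY mouse of highest muscle sum was chosen after the data were seen. In it Wnt3 and Wnt10b were called and Wnt7a was not (1.28, adjusted p from limma 0.0181) in EY against N. Of 7 immune markers 1 was called higher in EY: S100a8, a calprotectin subunit also made by keratinocytes and the highest of the list in mean TPM over the 19 mice, rose from 16.2 to 381.0 TPM (log2 4.76, adjusted p 3.14e-05, 6 of 6 EY mice above all N mice), and in Y it was at 495.5 TPM (5.44, adjusted p 0.000343, 3 of 3 above). Lyz2 was the highest in N mice, at 196.2 TPM. Immune sums were 746.7, 252.2, 116.6, 115.9 and 95.01 TPM in N mice and 37.1 to 521.2 in E mice. They were 536.1, 699.5 and 431.3 in Y mice, and 236.3 to 785.3 in EY mice with a median of 634.0. S100a8 averaged 495.5 TPM within a mean sum of 555.6 in Y mice, and 381.0 within 575.2 in EY mice.

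The rarer cell types gave low sums. Of 4 tested endothelial markers Tie1, the highest in mean TPM, was called higher in EY (log2 1.72, adjusted p from limma 0.00501, 5 of 6 EY mice above all N mice), a call lost without N mouse 4 (adjusted p 0.0180), N mouse 5 (0.0175) or EY mouse 1 (0.0133), 2 (0.0105) or 3 (0.0130) and in 7 of 14 other settings, among them median-of-ratios scaling, quantile normalization and voom, and the sums were 0.172 to 1.55 TPM in N and 0.940 to 5.67 in EY. Of 5 tested taste cell markers Pou2f3, the factor of type II taste cells, was called lower in EY (−1.43, adjusted p 2.00e-05, 6 of 6 EY mice below all N mice, but −0.48 with a pseudocount of 1 TPM), while Krt8 was at 3.04 and Trpm5 at 0.78, neither called and both chosen after their values were seen, with Tas1r3 at −0.59 as the list median. Krt20 was at 0 in 3 of 5 N, 4 of 5 E and all Y and EY mice. Taste cell sums were 5.62 to 19.8 TPM in N, where Tas1r3 had the highest mean, and 6.46 to 92.7 in EY, where Krt8 had. Schwann cell markers gave 0 calls among 4 in EY against N with limma and voom, and 0 at an unadjusted p below 0.05, with sums of 0.573 to 13.7 TPM in N and 0.823 to 9.09 in EY. The 1 adipocyte marker tested, Fabp4, was called higher in EY (2.89, adjusted p 0.00278, 6 of 6 EY mice above all N mice), though not without N mouse 5 (2.39, adjusted p 0.0101), with only the 3 N mice that had Cre and rtTA (2.14, adjusted p 0.0385) or with voom, with sums of 0.494 to 5.21 TPM in N and 5.57 to 41.3 in EY. Among 3 tested markers of minor salivary gland limma called 0 in EY against N, and voom called 1 lower, beside 2238 of all genes lower. At an unadjusted p from limma below 0.05 stood 1 of them, and the sums were 0.0707 to 10.9 TPM in N and 0.330 to 1.696 in EY. Aqp5 had the highest mean TPM over the 19 mice. Bpifa2, which was not tested, had it over the N mice but was at 0 in 3 of 5 N and all E, Y and EY mice.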

How the data were processed

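The deposited table holds TPM values that the authors made from poly-A RNA reads, with STAR 2.7.9, SAMtools 1.7, HTSeq 0.13.5 and build GRCm39 per the submitters' processing notes; how reads became TPM is not given in the sources used here. The authors tested with DESeq2 1.34.0, which needs counts and was not used here. Whole reads were recovered for 24680 of 24680 genes above 0 (100.0%, tolerance 0.001 of a step), and no pair of mice was identical. TPM followed gene span, not transcript length. The 22745 genes that reached 0.1 TPM in 3 or more mice were fitted as log2(TPM + 0.1) with limma 3.58.1 (R 4.3.3; lmFit and eBayes with trend, 1 mean for each of 4 groups, all 19 mice), with Benjamini-Hochberg adjustment over all 22745 genes and calls where the adjusted p was under 0.01 and the log2 fold change over 1 in size. The 6 pairwise contrasts and the interaction were tested. The code was tested on simulated data. Tables and plots used matplotlib 3.10.9, pandas 2.3.3 and numpy 2.4.6 in Python 3.11.15.

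The members and lists were chosen with earlier results of these data known. Genes were named by a rule: the 8 members in each comparison; from each list and each comparison with N, the called genes, at most the 4 of largest absolute log2 fold change, or, with none called, the gene of smallest unadjusted p; the most abundant gene of a list; and the 3 genes most alike in profile to Axin2 and to each called member. Some genes were added after their values were seen. They were Fzd7, Myc, Cd44 and Nkd2 in EY, Porcn in EY against E and Y, and Ccnd1 in Y, EY and against E. Added in the same way were Cdh1 and the uncalled squamous, fibroblast, immune and taste cell markers. Uncalled marker genes that the rule takes in E and Y are not all printed. List genes outside the table were not analysed here. Alternatives were other pseudocounts, filters and thresholds, median-of-ratios and quantile scaling, robust eBayes, voom on recovered reads, mouse number as a replicate block, only the groups compared, only the 3 N mice with Cre and rtTA, leaving out each mouse in turn, and, added after the data were seen, leaving out the N and the EY mouse of highest muscle sum.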

Additional observations from a re-analysis of the deposited data

Results flagged for a closer look

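In 82 groups of mice the highest or lowest value was tested for a wide gap to the next mouse, and 9 (11.0%) stood apart, where chance gives about 1 in 20. Among the 8 genes these were Wnt5a in N mouse 2, at 17.7 TPM with the next N mouse at 9.89 TPM, and Wnt10a in E mouse 4, at 18.4 TPM with the next E mouse at 13.2 TPM. The summed TPM of the co-receptors was 31.6 in EY mouse 6, with the next EY mouse at 25.8. Skeletal muscle markers summed to 233.7 TPM in N mouse 2 (next 58.7), 132.0 in E mouse 5 (next 36.6) and 1271 in EY mouse 3 (next 211.2). Immune markers summed to 746.7 TPM in N mouse 1 (next 252.2). Schwann cell markers summed to 9.09 TPM in EY mouse 6 (next 3.69), and minor salivary gland markers to 1.595 TPM in E mouse 2 (next 0.406). N mouse 2 was thus high in both Wnt5a and the muscle markers.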

How the results depend on the processing

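Of 1064 log2 fold changes of Wnt3, Wnt4, Wnt5a, Wnt7a, Wnt7b, Wnt10a, Wnt10b and Axin2 in fits without 1 mouse, 997 kept direction and side of the threshold, 38 lost it and 29 changed sign; of 769 in other settings 708 kept both, 25 lost the threshold, 6 gained it and 30 changed sign. For other named genes 1208 of 1235 and 840 of 894 kept both. Sign changes fell on differences that were small in the main fit, though some values were larger after the change. The cause was not tested. With median-of-ratios scaling they were Wnt4 (E/N −0.0645, EY/N −0.27, EY/E −0.21), Wnt10a (E/N −0.0664, EY/Y −0.0307), Wnt5a (EY/Y −0.10) and Wnt7b (EY/E −0.15). With voom they were Wnt4 (E/N −0.0646, EY/N −0.28, EY/E −0.21), Wnt10a (E/N −0.0683, EY/Y −0.0192), Wnt5a (EY/Y −0.11) and Wnt7b (EY/E −0.15). With quantile normalization they were Wnt4 (E/N −0.0803, EY/N −0.31, EY/E −0.23), Wnt10a (E/N −0.093, EY/Y −0.0039), Wnt5a (EY/Y −0.0894), Wnt7b (EY/E −0.15), Wnt10b (EY/Y −0.0171) and Axin2 (EY/Y −0.0243). With only the 3 N mice that had Cre and rtTA, Fabp4 (E/N −0.62), Wnt10b (E/N −0.28, interaction 0.47) and Wnt5a (interaction 0.0732) turned, and with a pseudocount of 1 TPM Wnt10b (interaction 0.0562). Mouse numbers recur across groups but do not pair mice: over 24 pairs of equal number the correlation of deviations was −0.043 to 0.076. With the number as a replicate block, EY/N gave 2 calls among the 8 genes instead of 3, without Wnt10b (1.72, adjusted p 0.0172), nor were Wnt6, Fzd9, Krt15 and Fabp4 called, and the interaction of Wnt10b (0.11), Wnt5a (0.0612) and Wnt10a (−0.0183) turned. Fits without 1 mouse gave ranges across 0 for Wnt10b (E/N −0.0436 to 0.47, EY/Y −0.22 to 0.51, interaction −0.41 to 0.31), Wnt7b (EY/N −0.11 to 0.12), Wnt10a (E/N −0.0643 to 0.0931, interaction −0.0244 to 0.21), Wnt5a (EY/Y −0.0853 to 0.17, interaction −0.28 to 0.0129), Wnt4 (E/N −0.0063 to 0.12, EY/E −0.0218 to 0.11), Axin2 (EY/Y −0.18 to 0.65) and Fabp4 (E/N −0.36 to 0.43). Calls among the 8 genes in EY/N numbered 1 with a pseudocount of 1 TPM, median-of-ratios scaling or the 3 N mice, and 1 to 3 without 1 mouse, with 1 without N mouse 4 or 5. In EY/E they numbered 1 with a pseudocount of 1 TPM, median-of-ratios scaling, quantile normalization or without N mouse 2 and EY mouse 3 (highest muscle sums, 233.7 and 1271 TPM; chosen after seeing the data), and 1 to 2 without 1 mouse. At an adjusted p below 0.05 they numbered 2 in Y/N and 1 in Y/E. Over all genes, calls of 274 in E/N became 414 at an adjusted p below 0.05 and 145 with only the groups compared; 454 in EY/Y became 865, 803 with no fold limit, 198 with only the groups compared, and 200, 255 and 262 without Y mouse 1, 2 and 3; 563 in Y/E became 1016, 986 and 187, and 316 and 266 without Y mouse 2 and 3; 1042 in Y/N became 1599, 1935 and 555, 656 with the 3 N mice and 639 without Y mouse 3. The 4157 in EY/N became 7248 and the 2914 in EY/E 5746 with no fold limit. The 40 of the interaction became 148 at an adjusted p below 0.05, 116 with voom and 73 without EY mouse 3. The share of higher calls moved with median-of-ratios scaling, quantile normalization and voom from 68.8% to 43.9%, 46.1% and 41.4% in EY/N, from 75.8% to 57.2%, 62.6% and 54.8% in Y/N, from 61.1% to 38.9%, 40.1% and 36.6% in EY/E, from 53.5% to 30.3%, 30.1% and 27.9% in EY/Y, and from 67.5% to 56.2%, 59.4% and 54.1% in Y/E. A filter at 1 TPM left no Wnt7a value, and depth limits Wnt7a, Wnt10b and, in EY mice, Wnt3.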
